A study of Mus musculus with 18 samples.

Results

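Deletion of the forkhead gene Foxd3 was followed in mouse embryonic stem cells by comparing 3 arrays of conditional knockout cells given tamoxifen for 2 days with 3 arrays of the same cells given DMSO. These are 6 of the 18 arrays of the study. Both groups carry floxed Foxd3 alleles and the tamoxifen-dependent recombinase Cre-ERT (Foxd3fl/fl:Cre-ERT), so the DMSO cells are not wild type, and they received the solvent with 0 days of tamoxifen. The labels name the line CGR8 for all samples and describe growth in GMEM with serum and LIF, the cytokine that sustains self-renewal. The other 12 arrays are of transfected cells with empty vector, Foxd3, the NFATc3 construct that the labels call CA-NFATc3, or both plasmids, and here the vector arrays serve to mark what plain stem cells express. No group of cells without Cre-ERT was given tamoxifen on these arrays, so loss of Foxd3, active recombinase and tamoxifen itself cannot be told apart. The promoter that drives Cre-ERT, the number of clones and the use of feeder cells are not given in the sources used for this work.

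Foxd3 is a transcription factor of the forkhead family that is present in pluripotent cells of the early embryo and later in the neural crest. In mice, embryos without it fail soon after implantation, and stem cells that lose it do not keep up normal self-renewal. The study asked how Foxd3 bears on NFAT, the calcium-activated transcription factor that is released by the phosphatase calcineurin and can drive stem cells to differentiate. Cre-ERT stays in the cytoplasm until tamoxifen binds its oestrogen receptor part, after which it enters the nucleus and cuts out the DNA between the loxP sites.

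All 18193 genes with a probe set of their own were taken, each read by its strongest probe set over the 18 arrays. Values are MAS5 signals on a linear scale. A difference is tamoxifen minus DMSO on the scale of log2(signal + 32), with the standard error (SE) of a limma fit, and a call needs a p, adjusted after Benjamini and Hochberg over all tested genes, under 0.05. Tested were the 12093 genes that reached a signal of 65.8, the median of all deposited values, in at least 3 of the 6 arrays. Of the 18193 genes, 8325 had a mean signal of 200 or more in the vector arrays and are called stem-cell-expressed here, 8318 of which were tested. Where the mean of a group lay under 65.8, the size of a log2 difference depends on the offset of 32. For such genes a fold is given as at least the ratio of signals plus 32, with signals of the lower group raised to that floor where under it. This fold includes the offset too. The labels call the 3 arrays of a group biological replicates without saying whether they were separate cultures, and p-values measure the spread between these arrays only.

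The arrays of a group resembled each other closely, with correlations of log2 values of 0.985 to 0.988 among the tamoxifen arrays and 0.984 to 0.986 among the DMSO arrays, against 0.972 to 0.977 between the groups. One technical value differed between them. The 3′ to 5′ ratio of the actin probe sets, a sign of RNA integrity, was 1.89, 1.89 and 1.90 with tamoxifen and 2.24, 2.16 and 2.06 with DMSO, and the groups did not overlap. For Gapdh this ratio was 0.999 to 1.03 with tamoxifen and 0.978 to 1.04 with DMSO. The summed signal of 8 stem cell markers was 78573 to 83096 with tamoxifen, 89258 to 91083 with DMSO and 97361 to 108890 with vector, and each of the 8 was above the floor in every group. The labelled cell type was thus visible in all 3 groups. The summed signal of 8 fibroblast markers was 15409 to 17620 with tamoxifen, 2700 to 3132 with DMSO and 424 to 528 with vector, where 6 of the 8 lay under the floor. In bulk samples like these, fewer cells of a type and less RNA per cell cannot be told apart.

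The Foxd3 signal fell as the labels say. It was 65.1, 9.55 and 19.7 with tamoxifen, against 249, 204 and 205 with DMSO, read by 1 probe set for a gene on chromosome 4. The tamoxifen arrays all lay under the floor and the DMSO arrays all lay above it, and the vector arrays averaged 443. Mean signals were 31.4 ± 29.6 with tamoxifen and 219 ± 25.9 with DMSO (SD, n = 3 each), at least 2.56-fold lower with tamoxifen (-2.08 ± 0.27, adjusted p = 0.000146). The difference was -3.17 with an offset of 1 and -1.30 with an offset of 100, and it stayed called in every alternative fit, with adjusted p from 2.60e-07 to 0.00351. Where this probe set lies relative to the deleted part is not given in the sources used for this work.

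Many genes differed by a little, and the large differences were mostly rises, chiefly of genes with little signal in vector-transfected stem cells. In limma, 4165 of 12093 genes were called (34.4%), 2122 of them higher (17.5%) and 2043 lower (16.9%). Of these, 458 were higher by at least 2-fold (3.79%) and 43 lower by at least 2-fold (0.356%). The 458 genes had a median signal of 501 with tamoxifen, 115 with DMSO and 35.3 with vector, and 306 of them averaged under 65.8 in the vector arrays. Past 4-fold on the scale of log2(signal + 32) there were 114 higher genes, of which 104 lay under 65.8 in the vector arrays and 1, Emp1, was stem-cell-expressed. On this scale 2 genes, Gpx2 and Foxd3 itself, had differences below -2, but both averaged under the floor with tamoxifen, and with an offset of 100 they were at -1.37 and -1.30. In 4064 of the called genes the arrays of the groups did not overlap (47.4% of all tested genes did not), and in 101 they did.

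Among the stem-cell-expressed genes, falls outnumbered rises. Of 8318 tested, 3102 were called (37.3%), 1297 higher (15.6%) and 1805 lower (21.7%), with 82 higher (0.986%) and 26 lower (0.313%) by 2-fold or more. Most of these differences were small: the median size among the called ones was 0.37 on the log2 scale, and 5% of all stem-cell-expressed genes lay below -0.49 and 5% above 0.51. Of the 3775 tested genes with less vector signal, 825 were higher (21.9%) and 238 lower (6.3%), with 376 higher (9.96%) and 17 lower (0.45%) by 2-fold or more. The balance shifted with the vector level. Among genes under 65.8 in the vector arrays, 33.8% were higher and 3.23% lower, and among those at 5000 or more, 9.52% were higher and 33.7% lower. The median difference over all tested genes was -0.01. Counts in the lists below are to be read beside these shares. They are 17.5% higher and 16.9% lower over all tested genes, and 15.6% and 21.7% over the stem-cell-expressed ones.

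**Figure D1:**
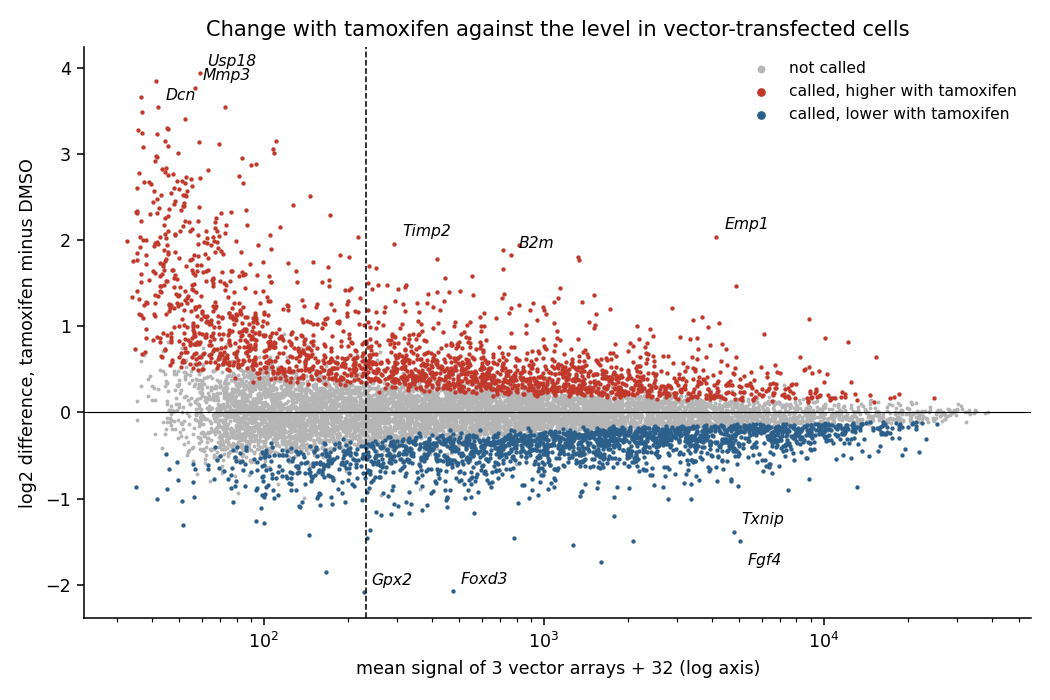
Each point is 1 of 12093 tested genes; the x axis is its mean signal in the 3 vector arrays plus 32 (log axis) and the y axis its log2 difference, tamoxifen minus DMSO. The dashed line marks a vector signal of 200, to the right of which 1297 genes were called higher and 1805 lower; the rises above 3 lie to its left.

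The core pluripotency factors were lower by small amounts or not called, while several genes around them moved more. Of 28 genes tested in the list of core and naive pluripotency, 5 were higher and 7 lower, and 16 did not pass, with a median difference of -0.05. Pou5f1, the POU factor Oct4, had signals of 7579, 7315 and 7914 with tamoxifen, against 8395, 9378 and 8348 with DMSO. The groups did not overlap, and the difference was -0.19 ± 0.06 (adjusted p = 0.0186). That call was lost without DMSO replicate 2 (adjusted p = 0.0859), without tamoxifen replicate 1 (0.0577) or 2 (0.0772), and with quantile normalization (0.103). It was also lost with all 18 arrays in one fit (0.0544) and without a variance trend (0.0997). Its partner Sox2 had 11530, 10931 and 11016 with tamoxifen, against 12605, 12962 and 12190 with DMSO, again without overlap (-0.17 ± 0.04, adjusted p = 0.00971, and 0.084 without a variance trend). Nanog, a homeodomain factor of the same circuit, had 5602, 5243 and 5806 with tamoxifen, against 6090, 6102 and 5858 with DMSO, and the difference did not pass (-0.12 ± 0.05, adjusted p = 0.103). Esrrb, an orphan nuclear receptor of the naive state, was at -0.17 ± 0.07 (adjusted p = 0.0871, and 0.0333 without DMSO replicate 3), and Zfp42, the stem cell marker Rex1, at -0.07 ± 0.05 (adjusted p = 0.29).

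Fgf4, the fibroblast growth factor that stem cells secrete and that prepares them for differentiation, fell furthest in this list. Its signals were 808, 1016 and 1078 with tamoxifen, against 3032, 2834 and 2470 with DMSO. Each tamoxifen array was under each DMSO array, and the vector arrays averaged 4975 (-1.50 ± 0.11, adjusted p = 9.90e-07). Tdgf1, the Nodal co-receptor Cripto, had 13296, 13227 and 13777 with tamoxifen, against 18331, 19470 and 18906 with DMSO (-0.49 ± 0.04, adjusted p = 4.08e-06). Klf4, a Krüppel-like factor of the naive state, had 6336, 6560 and 6498 with tamoxifen, against 8016, 8241 and 7828 with DMSO (-0.31 ± 0.04, adjusted p = 0.000275). Both pairs of groups were apart by more than their spread. Lin28a, which keeps the let-7 miRNAs from maturing, was lower too (-0.58 ± 0.07, adjusted p = 0.000113), but not with the mean of all its probe sets (-0.43, adjusted p = 0.133).

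The 5 higher genes of the 28 are near the share of all tested genes that were higher, 17.5%, as the 7 lower ones are near the 21.7% of stem-cell-expressed genes, so the counts set the list apart in neither direction. Tbx3, a T-box factor that helps to hold the naive state, had 2050, 2040 and 2132 with tamoxifen, against 1392, 1202 and 997 with DMSO, with no overlap (0.79 ± 0.10, adjusted p = 0.000111). Dppa2, a chromatin-bound factor of early embryo cells, had 8686, 7957 and 8270 with tamoxifen, against 7213, 5913 and 4804 with DMSO, and its lowest tamoxifen array was above its highest DMSO array (0.49 ± 0.11, adjusted p = 0.00496). Fbxo15, an F-box protein known as an Oct4 target, was higher by 0.46 ± 0.09 (adjusted p = 0.00173). Klf2, another Krüppel-like factor, was higher by 0.34 ± 0.09 (adjusted p = 0.0133), and Dppa3, a protein of naive cells and germ cells also named Stella, by 0.24 ± 0.06 (adjusted p = 0.00955).

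**Figure D2:**
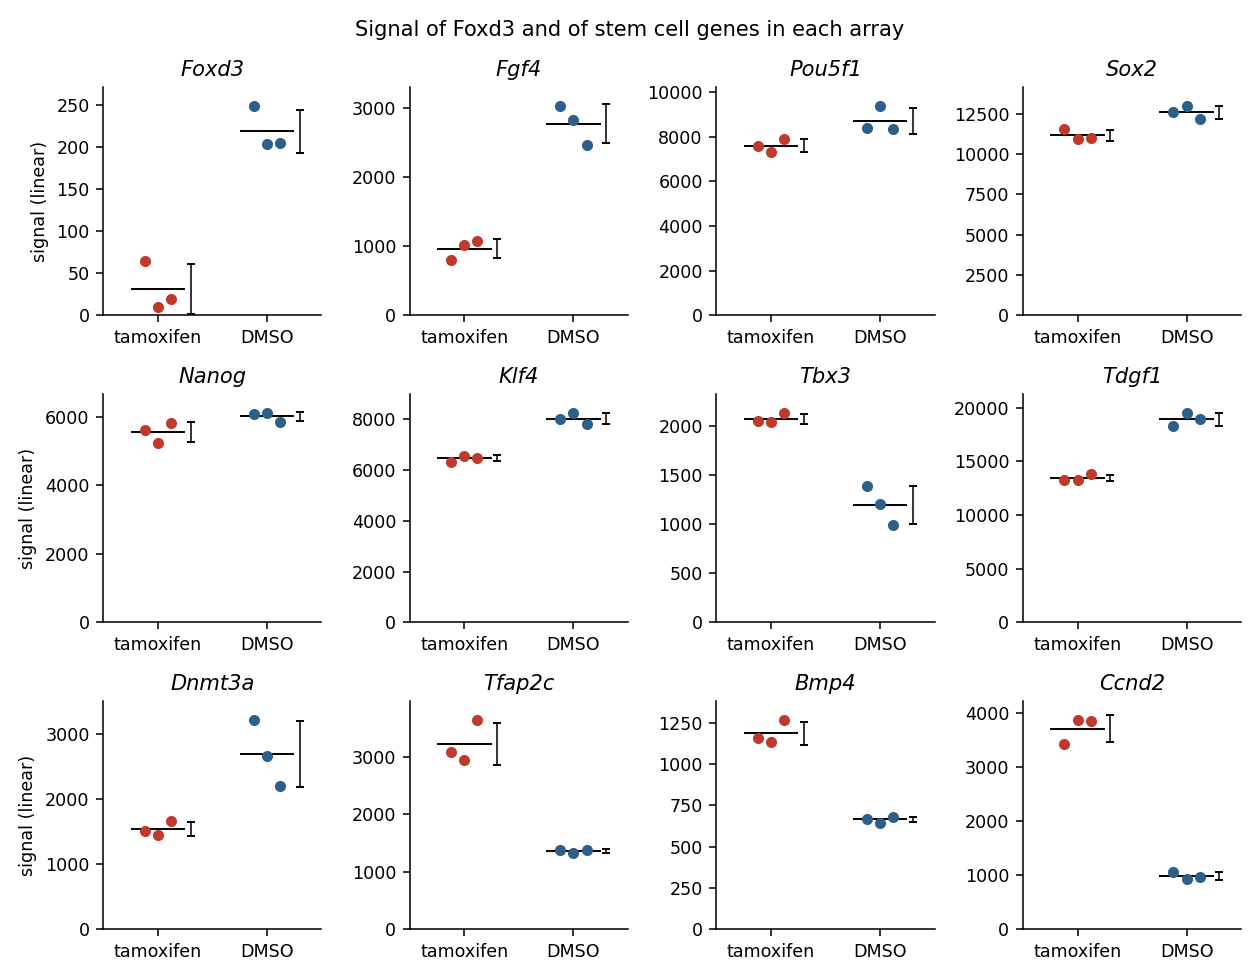
Signal (linear scale, axes from 0) of 12 genes in the 3 tamoxifen arrays (left, red) and the 3 DMSO arrays (right, blue); points are arrays, horizontal lines means and bars the SD. Foxd3 and Fgf4 stand lowest relative to DMSO, Pou5f1, Sox2 and Nanog differ little, and Tbx3, Tfap2c, Bmp4 and Ccnd2 are higher with tamoxifen.

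Genes of the primed epiblast, the state after implantation, included 8 lower ones of 14 tested, where 16.9% of all tested genes and 21.7% of stem-cell-expressed genes were lower. Of the others 1 was higher and 5 did not pass (median -0.24), and 2 were higher without DMSO replicate 1. The count of lower genes was 5 with all 18 arrays in one fit. Dnmt3a, a de novo DNA methyltransferase, had 1506, 1446 and 1659 with tamoxifen, against 3207, 2657 and 2200 with DMSO. The groups did not overlap (-0.78 ± 0.11, adjusted p = 0.00028). Its partner enzyme Dnmt3b had 10711, 11424 and 10112 with tamoxifen, against 13750, 13450 and 12673 with DMSO (-0.31 ± 0.05, adjusted p = 0.00099), and its call was lost with all 18 arrays in one fit (adjusted p = 0.121). Fgf15, a growth factor of the epiblast and neural plate, was at -0.70 ± 0.18 (adjusted p = 0.0109). Lef1, a nuclear partner of beta-catenin, was at -0.54 ± 0.16 (adjusted p = 0.0232), a call lost without DMSO replicate 1 (difference -0.36, adjusted p = 0.0687) or 2 (0.0598) or without tamoxifen replicate 2 (0.094). That call was also lost with all 18 arrays in one fit (0.0669), without a variance trend (0.0756) and with the mean of its probe sets (0.167). The gene that rose was Fgf5, the classic marker of this state, with 108, 122 and 105 with tamoxifen, against 52.4, 48.4 and 42.6 with DMSO. All DMSO arrays of Fgf5 lay under the floor and its tamoxifen arrays were low as well, at least 1.47-fold higher (0.85 ± 0.17, adjusted p = 0.00285). Otx2, a homeodomain factor that directs the exit from the naive state, did not pass (0.21 ± 0.13, adjusted p = 0.231).

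In the list of enzymes of DNA methylation and its removal, which also holds Dnmt3a and Dnmt3b, 5 of 7 tested were lower and 0 higher, and 2 did not pass (median -0.28). All 7 are stem-cell-expressed, and 21.7% of such genes were lower. The other 3 lower genes were Uhrf1, Tet1 and Tet2. Uhrf1, which recruits the maintenance methyltransferase, was at -0.30 ± 0.06 (adjusted p = 0.00232). The dioxygenases that oxidise methylcytosine were at -0.28 ± 0.06 for Tet1 (adjusted p = 0.00299) and -0.25 ± 0.07 for Tet2 (adjusted p = 0.0134). With the mean of all its probe sets Tet1 was at -0.46. Imprinted genes moved both ways, 5 of 14 tested higher and 2 lower, where 17.5% and 16.9% of all tested genes were. Phlda2, which restrains placental growth, had 2407, 2274 and 2346 with tamoxifen, against 5075, 4195 and 4040 with DMSO, without overlap (-0.91 ± 0.08, adjusted p = 5.62e-06). Ndn, the growth suppressor necdin, had 2549, 2479 and 2519 with tamoxifen, against 1404, 1341 and 1368 with DMSO, also without overlap (0.86 ± 0.06, adjusted p = 6.07e-07, and 0.53 with the mean of its probe sets).

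In the FGF pathway, the ligand Fgf4 fell while receptors and some feedback inhibitors rose. Of 12 genes tested, 6 were higher and 3 lower, and 3 did not pass (median 0.22). Over all tested genes 17.5% were higher and 16.9% lower. Dusp4, a nuclear phosphatase that turns off ERK, had 2109, 2016 and 1987 with tamoxifen, against 621, 463 and 620.1 with DMSO. The lowest tamoxifen array was several times the highest DMSO array (1.80 ± 0.10, adjusted p = 1.82e-07). The receptor Fgfr1 was higher by 0.35 ± 0.07 (adjusted p = 0.00304), and Fgfr2 by 0.70 ± 0.11 (adjusted p = 0.000439). The Fgfr2 call was lost when its probe sets were averaged (0.27, adjusted p = 0.151). The inhibitors Spry2 (0.37 ± 0.08) and Spred1 (0.44 ± 0.08) were also higher. Lower were Dusp6, the cytoplasmic ERK phosphatase (-0.33 ± 0.06, adjusted p = 0.000849), and the ETS factor Etv4 (-0.52 ± 0.14, adjusted p = 0.0116). Both are commonly read as ERK targets. The Etv4 call was lost with all 18 arrays in one fit (adjusted p = 0.113) and with the mean of its probe sets (0.0622).

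Genes of the Nodal, TGF-beta and BMP pathways leaned upward, with 7 of 17 tested higher, 1 lower and 9 not passing (median 0.33). The shares over all tested genes were 17.5% higher and 16.9% lower. Among ligands, Inhba, the activin A subunit, had 2053, 2523 and 2609 with tamoxifen, against 485, 398 and 404 with DMSO. It lay under the floor in the vector arrays, and its groups were far apart here (2.39 ± 0.10, adjusted p = 2.33e-08, and 1.13 with the mean of its probe sets). Bmp4, a ligand that supports self-renewal through Id genes, had 1160, 1134 and 1265 with tamoxifen, against 669.7, 646 and 679.8 with DMSO, with a narrow spread in both groups (0.80 ± 0.08, adjusted p = 1.13e-05). Nodal itself did not pass (0.14 ± 0.09, adjusted p = 0.259). Fst, the secreted activin antagonist follistatin, was higher by 1.25 ± 0.14 (adjusted p = 4.45e-05). Of the BMP targets, Id3, an inhibitor of basic helix-loop-helix factors, had 1293, 1586 and 1393 with tamoxifen, against 586, 429 and 590.0 with DMSO, with every tamoxifen array above every DMSO array (1.37 ± 0.12, adjusted p = 6.18e-06). Id2 was higher by 0.41 ± 0.13 (adjusted p = 0.0343). Lefty1, a Nodal antagonist and target, had 3693, 3783 and 3724 with tamoxifen, against 3483, 2291 and 1854 with DMSO, and the DMSO arrays were widely spread (0.60 ± 0.16, adjusted p = 0.0149). Without DMSO replicate 3 that difference was 0.40. The call of Lefty1 was lost without a variance trend (adjusted p = 0.0771). Lefty2 had 1628, 1639 and 1736 with tamoxifen, against 1921, 1181 and 1046 with DMSO, overlapping, and did not pass (0.31 ± 0.17, adjusted p = 0.171), except without DMSO replicate 1 (0.57, adjusted p = 0.000173) or with array weights. Skil, the TGF-beta repressor SnoN, was the gene that fell (-0.35 ± 0.05, adjusted p = 0.000214).

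Of 10 genes of the Wnt pathway tested, 2 were higher and 2 lower, near the shares of all tested genes (17.5% higher and 16.9% lower). Ccnd1, the cyclin D1 gene and a Wnt target, was higher (0.64 ± 0.06, adjusted p = 8.92e-06), and Sfrp1, a secreted Wnt antagonist, had 235, 205 and 279.8 with tamoxifen, against 339, 401 and 414 with DMSO and was lower (-0.62 ± 0.13, adjusted p = 0.00349). The other called genes were Sp5 and Lef1, whose calls were lost without 1 array, as given beside their values, which left 1 higher gene without DMSO replicate 2 or tamoxifen replicate 3, and 1 lower gene without DMSO replicate 1, DMSO replicate 2 or tamoxifen replicate 2.

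Genes of the embryonic lineages showed no common direction. The master regulators were low or did not pass: Gata6, a factor of primitive endoderm, had 143, 173 and 154 with tamoxifen, against 144, 169 and 117 with DMSO (0.11 ± 0.16, adjusted p = 0.62), and Sox17 had 97.5, 138 and 116 with tamoxifen, against 118, 112 and 71.6 with DMSO (0.18 ± 0.19, adjusted p = 0.505). Gata4 was under the floor in both groups and was not tested. Cdx2, a factor of trophectoderm, had 347, 228 and 283 with tamoxifen, against 226, 266 and 354 with DMSO, with overlapping groups (0.02 ± 0.17, adjusted p = 0.939). In the primitive streak list 11 of 16 genes did not reach the filter, and of 5 tested, 1 was higher and 1 lower. Eomes (-0.09 ± 0.14, adjusted p = 0.649) and Mixl1 (0.24 ± 0.22, adjusted p = 0.436), T-box and homeobox factors of the streak, did not pass. The higher gene was Sp5, a Wnt target (0.56 ± 0.16, adjusted p = 0.0178), whose call was lost without DMSO replicate 2 (adjusted p = 0.0607) or tamoxifen replicate 3 (0.0737). The lower one was Hhex, a homeobox factor of anterior endoderm (-0.41 ± 0.10, adjusted p = 0.0101).

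In the list of primitive and visceral endoderm, 5 of 13 tested genes were higher and 1 lower, and 7 did not pass (median 0.18), with 2 lower without DMSO replicate 3. The shares of all tested genes were 17.5% higher and 16.9% lower. The higher genes were not transcription factors. Pdgfra, the receptor PDGFR-alpha that fibroblasts carry too, had 321, 329 and 335 with tamoxifen, against 126, 90.2 and 119.6 with DMSO (1.33 ± 0.14, adjusted p = 2.31e-05), and Dab2, an endocytic adaptor also made by macrophages, had 596, 546 and 631 with tamoxifen, against 223, 300.0 and 306 with DMSO (1.02 ± 0.12, adjusted p = 8.13e-05). In neither did the groups overlap, and the values were 0.82 and 0.65 with the mean of probe sets. Sparc, Col4a1 and Col4a2, proteins of the matrix, were the others, at 0.85, 0.36 and 0.53. The lower gene was Lamc1, a laminin chain (-0.49 ± 0.12, adjusted p = 0.00752). Beside these, the summed signal of 8 fibroblast markers was several times higher with tamoxifen, as given above, and its part in the result was not tested.

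Of 15 trophectoderm genes tested, 1 was higher and 4 lower, and 10 did not pass (median -0.15). The shares of all tested genes were 17.5% and 16.9%. The higher one, Tfap2c, is the AP-2 gamma factor of trophectoderm, naive stem cells and germ cells. Its signals were 3079, 2940 and 3632 with tamoxifen, against 1386, 1328 and 1372 with DMSO. No tamoxifen array was near the DMSO arrays (1.22 ± 0.08, adjusted p = 4.32e-07). The keratin Krt19 had 410.1, 568 and 438 with tamoxifen, against 652, 870.1 and 1275 with DMSO and was lower (-0.90 ± 0.19, adjusted p = 0.00404). Ascl2, a factor of trophoblast progenitors, had 64.1, 17.95 and 159 with tamoxifen, against 178, 228 and 209.7 with DMSO, with a wide spread (-1.28 ± 0.36, adjusted p = 0.0177), and its call was lost without DMSO replicate 2 (adjusted p = 0.0531), while without tamoxifen replicate 2 its difference was -0.80. The keratins Krt7 (-0.55) and Krt18 (-0.33) were the other lower genes. Krt7 lost its call without DMSO replicate 2 or 3 or tamoxifen replicate 2 or 3, with adjusted p from 0.0858 to 0.147, and the count of lower genes was 2 without DMSO replicate 3, tamoxifen replicate 2 or tamoxifen replicate 3.

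Neuroectoderm genes were split, 3 of 11 tested higher and 3 lower, where 17.5% and 16.9% of all tested genes were. Ncam1, a neural adhesion molecule, had 589, 728 and 592 with tamoxifen, against 222, 306 and 281 with DMSO, without overlap (1.15 ± 0.13, adjusted p = 4.46e-05, and 0.48 with the mean of its probe sets). Zic1, a zinc finger factor of the neural plate, had 143, 164 and 145 with tamoxifen, against 63.7, 66.3 and 43.0 with DMSO, with DMSO arrays at or under the floor (1.04 ± 0.17, adjusted p = 0.000834). Sox11, a factor of neural progenitors, fell, with 1464, 1552 and 1524 with tamoxifen, against 2398, 2288 and 2516 with DMSO, also without overlap (-0.65 ± 0.06, adjusted p = 1.20e-05). Of 6 neural crest genes tested 2 were higher, the repressor Snai2, also named Slug (1.69 ± 0.10, adjusted p = 2.01e-07), and Ets1 (0.75 ± 0.14, adjusted p = 0.00166). In the list of mesoderm and smooth muscle, 5 of 10 were higher and 0 lower (median 0.35). Acta2, smooth muscle actin and a marker of activated fibroblasts, had 6245, 6988 and 6846 with tamoxifen, against 2262, 2834 and 3260 with DMSO, without overlap (1.27 ± 0.11, adjusted p = 3.78e-06, and 0.47 with the mean of its probe sets). Its vector mean was 64.9. Myl9, a myosin light chain, was higher by 1.27 ± 0.17 (adjusted p = 0.000147). These rises stood beside the fibroblast markers, whose part in them was not tested.

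In the list of 2-cell stage and germline genes, 3 of 16 tested were higher and 6 lower, and 7 did not pass (median -0.19). The shares of all tested genes were 17.5% higher and 16.9% lower. Zfp352, a gene of the 2-cell embryo, had 252, 274 and 267 with tamoxifen, against 52.1, 60.4 and 33.9 with DMSO. The DMSO arrays all lay under the floor, and the tamoxifen arrays were at least 3.03-fold above it (1.89 ± 0.17, adjusted p = 6.62e-06). Falls were in genes of germ cells and meiosis. Mael, which guards against transposons, had 575, 521 and 439 with tamoxifen, against 941, 1109 and 961 with DMSO (-0.93 ± 0.11, adjusted p = 5.06e-05), and Stra8, which starts meiosis, had 334, 287 and 358 with tamoxifen, against 663, 666 and 472 with DMSO (-0.81 ± 0.14, adjusted p = 0.000886). In both the groups did not overlap. Ddx4, the helicase Vasa, fell by 0.63 on the log2 scale (adjusted p = 4.67e-05), and Dazl, an RNA-binding protein of germ cells, fell by 0.55 (adjusted p = 0.00188).

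**Figure D3:**
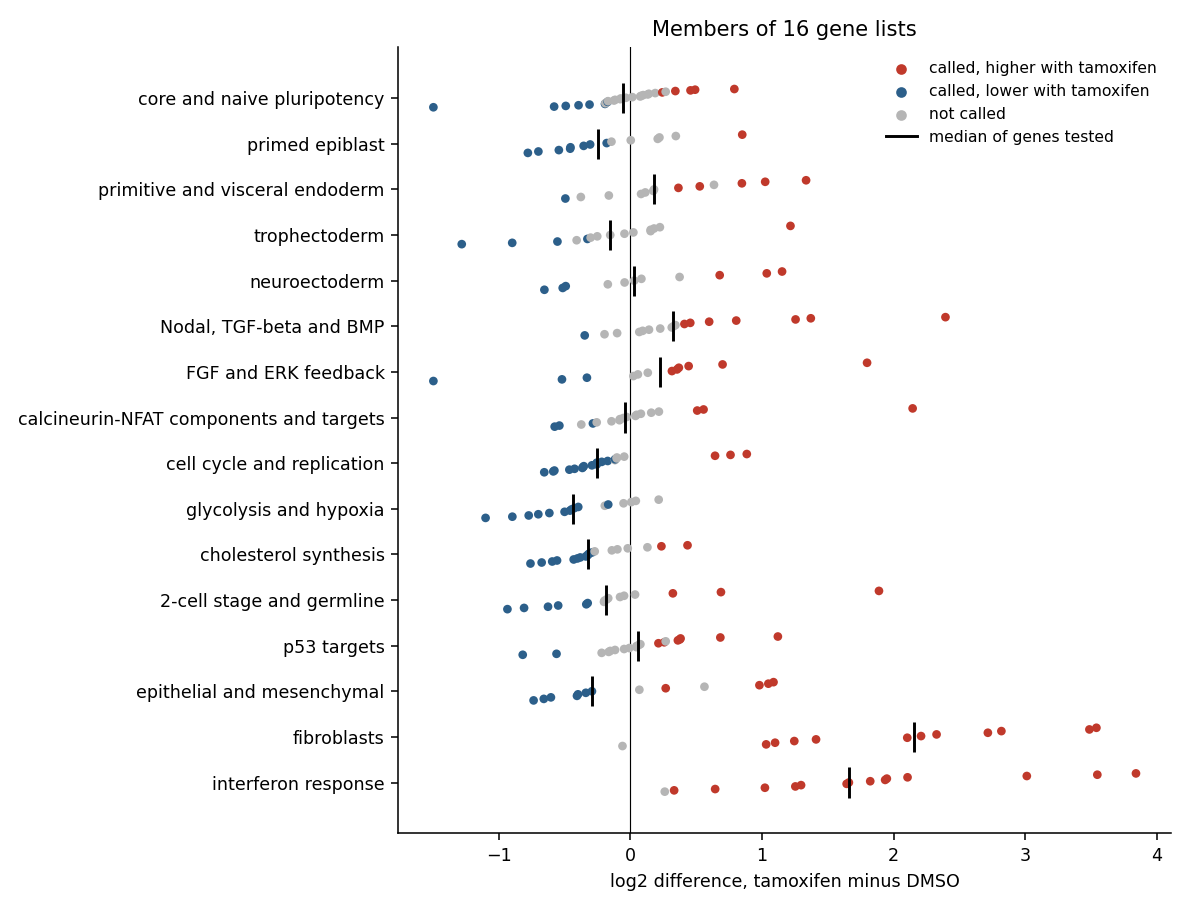
Log2 differences, tamoxifen minus DMSO (x axis), of the tested members of 16 lists; each point is a gene, red where called higher, blue where called lower and grey where not called, and black bars are list medians. The interferon and fibroblast lists lie almost wholly to the right, with medians of 1.66 and 2.16, while glycolysis and hypoxia lies mainly to the left, at -0.44.

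Among the stem-cell-expressed genes with the largest rises was Emp1, a membrane protein related to the claudins. Its signals were 5556, 6075 and 5360 with tamoxifen, against 1466, 1093 and 1540 with DMSO, and the vector mean was 4108 (2.04 ± 0.11, adjusted p = 9.31e-08). The tamoxifen arrays thus lay above the vector mean and the DMSO arrays well under it. With the mean of its probe sets the difference was 0.91. Timp2, an inhibitor of matrix proteases, had 5674, 6161 and 6540 with tamoxifen, against 1476, 1402 and 1826 with DMSO (1.95 ± 0.09, adjusted p = 3.65e-08, and 1.12 with the mean of its probe sets). Ccnd2, the G1 cyclin D2, had 3427, 3867 and 3856 with tamoxifen, against 1070, 928 and 964 with DMSO, with no overlap and a vector mean of 684 (1.88 ± 0.07, adjusted p = 1.02e-08). Adgrg6, an adhesion G protein-coupled receptor, was under the floor with DMSO and at least 2.17-fold higher with tamoxifen (adjusted p = 3.02e-05). Col5a1, a fibrillar collagen chain, was higher by 1.67 ± 0.11 (adjusted p = 5.30e-07, and 1.10 with the mean of its probe sets). The other 5 of the 10 largest rises, Oas1a, B2m, Xaf1, H2-D1 and Zc3hav1, are interferon-induced genes.

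Among the large falls, whose order depends on the offset for genes near the floor, was that of Gpx2, a selenium-dependent glutathione peroxidase of epithelia. Its signals were 22.2, 74.2 and 22.2 with tamoxifen, against 242, 267 and 260.2 with DMSO, at least 2.87-fold lower (-2.09 ± 0.24, adjusted p = 5.88e-05). Of the tamoxifen arrays, 2 were well under the floor and 1 just above it, and all were under the DMSO arrays. Ppp1r3c, a glycogen-targeting subunit of protein phosphatase 1, had 74.7, 113 and 105 with tamoxifen, against 274, 539 and 534 with DMSO, again without overlap (-1.85 ± 0.23, adjusted p = 8.47e-05, and -0.83 with the mean of its probe sets). The uncharacterised transcript 1700097N02Rik was at -1.74 ± 0.08 (adjusted p = 4.47e-08).

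Several of the largest falls were in genes that stem cells express at a high level. G2e3, a ubiquitin ligase of the G2 phase, had 1108, 1057 and 955 with tamoxifen, against 2590, 3338 and 3061 with DMSO (-1.49 ± 0.09, adjusted p = 3.32e-07). Txnip, the thioredoxin-binding protein that responds to glucose, had 3500, 3412 and 3611 with tamoxifen, against 7850, 10216 and 9716 with DMSO (-1.38 ± 0.08, adjusted p = 2.43e-07). In both, each tamoxifen array was under every DMSO array by a wide gap. A2m, the protease inhibitor alpha-2-macroglobulin, was at -1.54, and Actn3, an actinin of fast muscle, at -1.46. Cobl, an actin nucleator, was at -1.21, or -0.70 with the mean of its probe sets. Under the floor with tamoxifen were Prmt8, an arginine methyltransferase (at least 1.95-fold lower), Atp1b2, a sodium pump subunit (at least 1.92-fold), and Smc1b, a meiotic cohesin subunit (at least 1.75-fold). Fitm1, a protein of lipid droplets, was at least 1.77-fold lower, with 35.5, 127 and 24.6 with tamoxifen, against 180.3, 178 and 158 with DMSO.

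Genes of cell division were lower by small amounts, and inhibitors of the cycle went both ways. Of 22 tested, 15 were lower and 3 higher, and 4 did not pass (median -0.26). Stem-cell-expressed were 20 of the 22, and 21.7% of all such genes were lower. Among genes with a vector signal of 5000 or more 33.7% were lower. Cdk1, the mitotic kinase, had 5423, 5382 and 5459 with tamoxifen, against 7409, 7430 and 7032 with DMSO, without overlap (-0.42 ± 0.05, adjusted p = 3.22e-05). Plk1, the polo-like kinase, was at -0.58 ± 0.07 (adjusted p = 5.75e-05), and Mki67, the proliferation marker, at -0.35 ± 0.05 (adjusted p = 0.000198). All 5 subunits of the MCM helicase that were lower lay between -0.36 and -0.12. Of the inhibitors, Cdkn2a, which encodes p16 and p19Arf, had 631, 669 and 702 with tamoxifen, against 273, 397 and 383 with DMSO (0.88 ± 0.13, adjusted p = 0.000307), and Cdkn2b, p15, had 682, 717 and 833 with tamoxifen, against 420.4, 408 and 446 with DMSO (0.76 ± 0.10, adjusted p = 0.000118). Both were above all DMSO arrays. The inhibitors Cdkn1b, p27 (-0.65 ± 0.10, and -0.32 with the mean of its probe sets), and Cdkn1c, p57 (-0.59 ± 0.10), were lower. The third higher gene was Ccnd1.

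Of 20 p53 targets tested, 7 were higher and 2 lower, and 11 did not pass (median 0.05), and the count of higher genes was 4 with all 18 arrays in one fit. Over all tested genes 17.5% were higher and 16.9% lower. Cdkn1a, the inhibitor p21, had 3466, 3179 and 3708 with tamoxifen, against 2076, 2182 and 2144 with DMSO, without overlap (0.68 ± 0.06, adjusted p = 1.17e-05). Mdm2, the ligase that degrades p53, was higher by 0.36 ± 0.06 (adjusted p = 0.00121), and Fas, the death receptor, by 1.12 ± 0.23 (adjusted p = 0.00331). Bbc3, the pro-apoptotic protein Puma, was lower (-0.56 ± 0.12, adjusted p = 0.00318), as was Sesn1, a sestrin (-0.82 ± 0.17, adjusted p = 0.00323). Among 14 regulators of apoptosis tested, 2 were higher and 4 lower. Casp8, the initiator caspase of death receptors, had 406, 408 and 391 with tamoxifen, against 182, 132 and 134 with DMSO, without overlap (1.27 ± 0.13, adjusted p = 2.46e-05). Bmf, a BH3-only protein, had 368, 354 and 338 with tamoxifen, against 616, 779 and 712 with DMSO, also without overlap (-0.92 ± 0.10, adjusted p = 4.30e-05, and -0.52 with the mean of its probe sets).

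Most tested genes of glycolysis and of the hypoxia response were lower. Of the 15 with a promoter entry, 7 carry the binding core of the hypoxia-inducible factors, ACGTGC, and the stretches around it are shown for 5 of these to locate it. They are RefSeq sequence of build GRCm38.p6, written along the strand of the gene, with the core in capitals, which reads GCACGT where it lies on the opposite strand.
Slc2a1: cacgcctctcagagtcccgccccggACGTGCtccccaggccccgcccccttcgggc
Ldha: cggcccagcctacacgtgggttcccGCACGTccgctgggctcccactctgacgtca
Bnip3: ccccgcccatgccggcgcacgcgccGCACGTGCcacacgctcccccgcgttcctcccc
Ankrd37: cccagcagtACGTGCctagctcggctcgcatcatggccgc
P4ha1: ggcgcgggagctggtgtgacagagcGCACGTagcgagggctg
They lie at chr4:119108684-119108739 (plus strand), chr7:46845744-46845799 (plus), chr7:138909583-138909640 (minus), chr8:46000061-46000100 (minus) and chr10:59323254-59323295 (plus). In Bnip3 the core occurs on both strands at the same place, where it also holds the E-box CACGTG. In windows of 250 bases before to 50 after the start, searched on both strands, 7 of the 15 list genes with a promoter entry held the core, or 46.7%. Pgk1 and Car9, whose stretches are not printed, are among them. The list was chosen as genes of glycolysis and hypoxia, so its share does not bear on the difference with tamoxifen. Of all 27025 promoters 5.92% held it, of those of tested genes 8.46%, of called higher genes 8.59% and of called lower genes 8.91%. A match is a description of the letters only.

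Of 16 glycolysis and hypoxia genes tested, 0 were higher and 11 lower, and 5 did not pass (median -0.44, against -0.01 over all tested genes). Ankrd37, an ankyrin protein induced by hypoxia, had 449, 356 and 352 with tamoxifen, against 822, 906 and 848 with DMSO (-1.10 ± 0.10, adjusted p = 1.20e-05). Egln3, the oxygen-sensing prolyl hydroxylase PHD3, had 659, 698 and 721 with tamoxifen, against 1196, 1460 and 1308 with DMSO (-0.90 ± 0.09, adjusted p = 1.28e-05). Hk2, the hexokinase that starts glycolysis, had 4628, 4754 and 4642 with tamoxifen, against 7618, 8009 and 8422 with DMSO (-0.77 ± 0.05, adjusted p = 4.77e-07). In these genes every tamoxifen array was under every DMSO array, and the DMSO arrays also lay above the vector means of 421, 874 and 4654. Bnip3, a mitophagy receptor, was at -0.70 ± 0.07 (adjusted p = 2.56e-05), the glucose transporter Slc2a1 at -0.50 ± 0.05 (adjusted p = 2.20e-05) and lactate dehydrogenase Ldha at -0.43 ± 0.05 (adjusted p = 6.27e-05). Oxygen, glucose and cell density of the cultures are not given in the sources used for this work.

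Cholesterol synthesis followed the same direction, with 12 of 19 tested lower, 2 higher and 5 not passing (median -0.32). Stem-cell-expressed were 18 of the 19, and 21.7% of all such genes were lower. Dhcr7, which makes the last step to cholesterol, had 581, 589 and 659.8 with tamoxifen, against 868, 1314 and 1022 with DMSO (-0.76 ± 0.13, adjusted p = 0.00081). Insig1, the sterol-sensing retention protein, had 2378, 2529 and 2377 with tamoxifen, against 3231, 4378 and 4169 with DMSO (-0.67 ± 0.10, adjusted p = 0.00025). The groups did not overlap in either gene. Stard4, a sterol carrier (-0.59), and Msmo1, a methyl sterol oxidase (-0.56), were lower as well. Ebp (0.43) and Sc5d (0.24), isomerase and desaturase of the pathway, were the 2 higher genes, and 1 of them was left without DMSO replicate 1 or 3 and without any 1 of the tamoxifen arrays. In the list of the integrated stress and unfolded protein responses 7 of 20 were higher (2 with all 18 arrays in one fit) and 6 lower. Ddit4, an mTORC1 inhibitor that stress and hypoxia induce, had 5071, 5247 and 5133 with tamoxifen, against 8158, 10901 and 11820 with DMSO, without overlap (-0.98 ± 0.10, adjusted p = 3.13e-05). The serine synthesis enzymes Psat1 (-0.44 ± 0.05) and Phgdh (-0.36 ± 0.04) were lower, and Asns, asparagine synthetase, was at -0.42 ± 0.06.

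Lysosomal genes rose, 10 of 14 tested, with 2 lower and 2 not passing (median 0.52). Stem-cell-expressed were 13 of the 14, and 15.6% of all such genes were higher. Ctsb, the protease cathepsin B, had 4164, 4561 and 4429 with tamoxifen, against 1715, 1926 and 1741 with DMSO (1.28 ± 0.06, adjusted p = 5.59e-08). Plin2, a coat protein of lipid droplets, had 4833, 5192 and 5012 with tamoxifen, against 1980, 1685 and 2298 with DMSO (1.33 ± 0.09, adjusted p = 7.61e-07). Gpnmb, a glycoprotein of macrophage and melanocyte lysosomes, had 1759, 1730 and 1756 with tamoxifen, against 552, 312 and 271 with DMSO (2.18 ± 0.19, adjusted p = 4.93e-06, and 1.43 with the mean of its probe sets). In all of them the groups were apart. Macrophage genes rose in the same arrays, as described below, and their part was not tested. The 2 lower genes, Abcg1 and Lpl, were not both called without DMSO replicate 2 or 3 or without tamoxifen replicate 1 or 2, when 0 or 1 of them stayed lower. Of 10 antioxidant genes tested, 3 were higher (5 without DMSO replicate 1) and 3 lower. Sqstm1, the autophagy receptor p62, had 2252, 2226 and 2258 with tamoxifen, against 1208, 1178 and 1342 with DMSO (0.84 ± 0.07, adjusted p = 2.69e-06) and Hmox1, heme oxygenase, was at 0.73 ± 0.13 (adjusted p = 0.00111).

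Of 10 tested targets of the oestrogen and aryl hydrocarbon receptors, 3 were higher and 1 lower, against 17.5% and 16.9% of all tested genes. Cyp1b1, a cytochrome P450 that the aryl hydrocarbon receptor induces, had 573, 712 and 645 with tamoxifen, against 101, 109 and 129 with DMSO, without overlap (2.22 ± 0.13, adjusted p = 1.63e-07, and 0.96 with the mean of its probe sets). Ctsd, another gene of this list, was higher by 1.01 (adjusted p = 4.93e-07) and stayed at 0.96 to 1.06 over the alternatives. Genes of fibroblasts, macrophages and lysosomes rose in the same arrays, and their part in the rises of Cyp1b1 and Ctsd was not tested. Esr1, the oestrogen receptor gene, had 1067, 984 and 911 with tamoxifen, against 764, 667 and 604 with DMSO (0.52 ± 0.10, adjusted p = 0.00165), and lost its call when its probe sets were averaged (adjusted p = 0.0865). Its vector mean was 18.6, and a probe set for Esr1 could also read a transgene that holds its sequence, which was not tested. Greb1, the most typical oestrogen target, had 144, 173 and 154 with tamoxifen, against 178, 239 and 284 with DMSO and was lower (-0.47 ± 0.16, adjusted p = 0.0404), a call lost without any 1 of DMSO replicates 2 and 3 and of the tamoxifen arrays (adjusted p 0.0587 to 0.144).

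Interferon-induced genes were among those with large rises, beside genes of fibroblasts, proteases and chemokines. Type I interferon acts through transcription factors, Irf9 among them, that bind the interferon-stimulated response element. Its core was searched on both strands as GAAA, any 2 bases and GAAA again. The stretches that hold it are printed for 5 genes called higher, since they show where the shared letters lie, as RefSeq sequence of build GRCm38.p6 along the strand of the gene, with the core in capitals (TTTC, any 2 bases and TTTC where it lies on the opposite strand).
Ifit1: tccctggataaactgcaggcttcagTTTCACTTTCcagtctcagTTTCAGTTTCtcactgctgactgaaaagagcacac
Ifit3: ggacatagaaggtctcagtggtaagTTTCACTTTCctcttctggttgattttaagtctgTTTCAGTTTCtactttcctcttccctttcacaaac
Oas1a: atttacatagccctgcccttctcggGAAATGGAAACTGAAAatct
Bst2: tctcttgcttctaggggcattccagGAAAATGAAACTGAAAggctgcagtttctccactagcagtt
B2m: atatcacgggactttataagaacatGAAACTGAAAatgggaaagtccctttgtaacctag
They lie at chr19:34640760-34640838 (plus strand), chr19:34583348-34583441 (plus), chr5:120907526-120907570 (minus), chr8:71537562-71537627 (minus) and chr2:122147523-122147582 (plus). Ifit1, Ifit3, Oas1a and Bst2 have 2 cores each, which overlap in Oas1a and Bst2, and B2m has 1. Of the 14 interferon list genes with a promoter entry, 6 held the core, or 42.9%. The share was 3.49% of all 27025 promoters, 2.94% of those of tested genes, 12.1% of the genes higher by 2-fold or more (41 of 340) and 0 of 34 among the genes lower by 2-fold or more. Among stem-cell-expressed genes higher by 2-fold or more it was 8 of 70, or 11.4%. The interferon list was chosen as interferon-induced genes, so its own share does not bear on the difference with tamoxifen. The absence of a match says only that these letters are not in this window.

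Of 15 genes tested in the interferon list, 14 were higher and 0 lower, and 1 did not pass (median 1.66). Of its 16 measured genes, 5 averaged under 65.8 with DMSO and 0 with tamoxifen. Some thus passed the filter mainly through the tamoxifen arrays. Of the 6 tested members that are stem-cell-expressed, a choice made on the vector arrays, 5 were higher and 0 lower. Among all such genes 15.6% were higher. Usp18, Rtp4 and Ifi202b, given here with the interferon list, are not in it and were named as large rises. Usp18 is the protease that strips ISG15 from proteins and dampens interferon signalling, and its rise was the largest at offsets of 32 and 100 among the genes named here but not at an offset of 1, where Ifit1 was at 4.59 and Usp18 at 4.16. Its signals were 2858, 3107 and 3035 with tamoxifen, against 176, 159 and 165 with DMSO, with a vector mean of 27.1 (3.93 ± 0.08, adjusted p = 1.22e-10). Ifit1, which binds foreign RNA ends, had 934, 1066 and 1116 with tamoxifen, against 59.7, 33.1 and 37.5 with DMSO. The DMSO arrays of Ifit1 all lay under the floor, and tamoxifen arrays were at least 10.9-fold higher (3.84 ± 0.15, adjusted p = 1.02e-08). Ifit3, its partner, had 1004, 1216 and 1077 with tamoxifen, against 80.8, 46.7 and 69.1 with DMSO, at least 10.9-fold higher (3.55 ± 0.14, adjusted p = 1.35e-08). Rtp4, a chaperone of receptors that interferon induces, had 2974, 3247 and 3203 with tamoxifen, against 324, 226 and 140.1 with DMSO (3.66 ± 0.19, adjusted p = 9.56e-08, and 2.10 with the mean of its probe sets). In all of these the groups were far apart. Rsad2, the antiviral enzyme viperin, had 988, 1074 and 1073 with tamoxifen, against 96.9, 95.6 and 113 with DMSO (3.01 ± 0.10, adjusted p = 4.57e-09). Ifi202b, an interferon-inducible DNA sensor of a family of near-identical copies that probes may not separate, had 2352, 2905 and 2759 with tamoxifen, against 233, 266 and 237 with DMSO (3.28 ± 0.09, adjusted p = 1.28e-09).

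The factors that carry the response rose too. Irf7, which amplifies type I interferon, had 357, 489 and 377 with tamoxifen, against 50.3, 60.9 and 104 with DMSO (2.10 ± 0.19, adjusted p = 9.44e-06). Irf9, a DNA-binding factor of the interferon response, had 453, 466 and 497 with tamoxifen, against 180.1, 154 and 208 with DMSO and was already present with vector, at 283 (1.25 ± 0.12, adjusted p = 1.47e-05). No array of one group reached the other in either gene. Among genes that vector cells express, Oas1a, a sensor of double-stranded RNA, had 3099, 3022 and 3356 with tamoxifen, against 947, 793 and 667 with DMSO and a vector mean of 788 (1.95 ± 0.10, adjusted p = 1.13e-07), and other Oas1 copies could share its probes. Xaf1, a pro-apoptotic interferon-induced protein, had 1363, 1294 and 1273 with tamoxifen, against 324, 369 and 367 with DMSO, and its vector mean of 1289 lay at the level of the tamoxifen arrays (1.80 ± 0.08, adjusted p = 3.71e-08). Zc3hav1, the antiviral RNA-binding protein ZAP, had 2514, 2723 and 2905 with tamoxifen, against 822, 768 and 728 with DMSO with a vector mean of 1302 (1.77 ± 0.08, adjusted p = 2.06e-08, and 0.83 with the mean of its probe sets). For Xaf1 and Zc3hav1 the DMSO arrays were thus lower than the vector mean. Bst2, tetherin, had 5585, 5499 and 5446 with tamoxifen, against 2360, 2115 and 2206 with DMSO (1.30 ± 0.06, adjusted p = 2.13e-08).

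In the list of antigen presentation by MHC class I, RNA of most tested genes was higher too. This list and those of macrophages, chemokines and matrix proteases were put together after values had been seen, so that their counts only describe. Of 13 genes tested, 9 were higher and 0 lower, and 4 did not pass (median 0.88). B2m, the light chain of class I molecules, had 11891, 11849 and 12330 with tamoxifen, against 3161, 3379 and 3609 with DMSO, with a vector mean of 729 (1.82 ± 0.05, adjusted p = 1.37e-09). The heavy chain genes H2-D1 (1.77 ± 0.06, adjusted p = 6.73e-09) and H2-K1 (1.58 ± 0.08, adjusted p = 4.47e-08) are near copies of each other, and their probes may cross-read. Tapbp, the loading chaperone tapasin, had 1668, 1637 and 1587 with tamoxifen, against 474, 624 and 606 with DMSO (1.48 ± 0.10, adjusted p = 5.54e-07), and Psmb8, an immunoproteasome subunit, had 696, 781 and 738 with tamoxifen, against 188, 181 and 287 with DMSO (1.64 ± 0.15, adjusted p = 6.86e-06). The tamoxifen arrays were above the DMSO arrays in each of these. The peptide transporter genes did not pass, with Tap1 at 0.16 ± 0.13 (adjusted p = 0.365) and Tap2 at 0.16 ± 0.13 (adjusted p = 0.375).

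Genes of fibroblasts rose strongly, and these cells differed from the vector-transfected ones already with DMSO. Of 12 tested, 11 were higher and 0 lower, and 1 did not pass (median 2.16). Of the 12, 2 averaged under 65.8 with DMSO and 0 with tamoxifen, so the filter favoured genes high with tamoxifen. In the vector arrays 9 averaged under 65.8, and 33.8% of tested genes at that level were higher. Cdh11 and Tm4sf1, given here too, are not in the fibroblast list and were named as large rises. Dcn, the matrix proteoglycan decorin, had 2588, 3123 and 2878 with tamoxifen, against 166, 183 and 326 with DMSO, and a vector mean of 9.85 (3.54 ± 0.18, adjusted p = 6.37e-08, and 2.04 with the mean of its probe sets). Postn, the matrix protein periostin, had 2974, 3450 and 3092 with tamoxifen, against 227, 241 and 296 with DMSO (3.49 ± 0.10, adjusted p = 1.28e-09). Col1a2, a chain of type I collagen, had 6810, 8018 and 7955 with tamoxifen, against 1002, 1173 and 1215 with DMSO (2.72 ± 0.08, adjusted p = 1.45e-09). In all 3 genes the tamoxifen arrays were several times the DMSO arrays, and the vector means of 4.71 for Postn and 27.2 for Col1a2 were under the floor. Col5a2, another collagen chain, was higher by 2.82 ± 0.09 (adjusted p = 1.45e-09). Cdh11, a cadherin of mesenchymal cells, had 1855, 2205 and 1864 with tamoxifen, against 217, 129 and 175 with DMSO (3.30 ± 0.14, adjusted p = 2.13e-08). Tm4sf1, a tetraspanin-like surface protein, was at 3.24 ± 0.13 (adjusted p = 1.02e-08, and 1.91 with the mean of its probe sets). The gene that did not pass was Mmp2, a gelatinase of fibroblasts, with 479, 437 and 518 with tamoxifen, against 506, 508 and 483 with DMSO, overlapping (-0.06 ± 0.09, adjusted p = 0.662). The fibroblast markers did not move by a common factor: Thy1 was at 1.10 ± 0.10 and Pdgfrb at 1.03 ± 0.12.

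**Figure D4:**
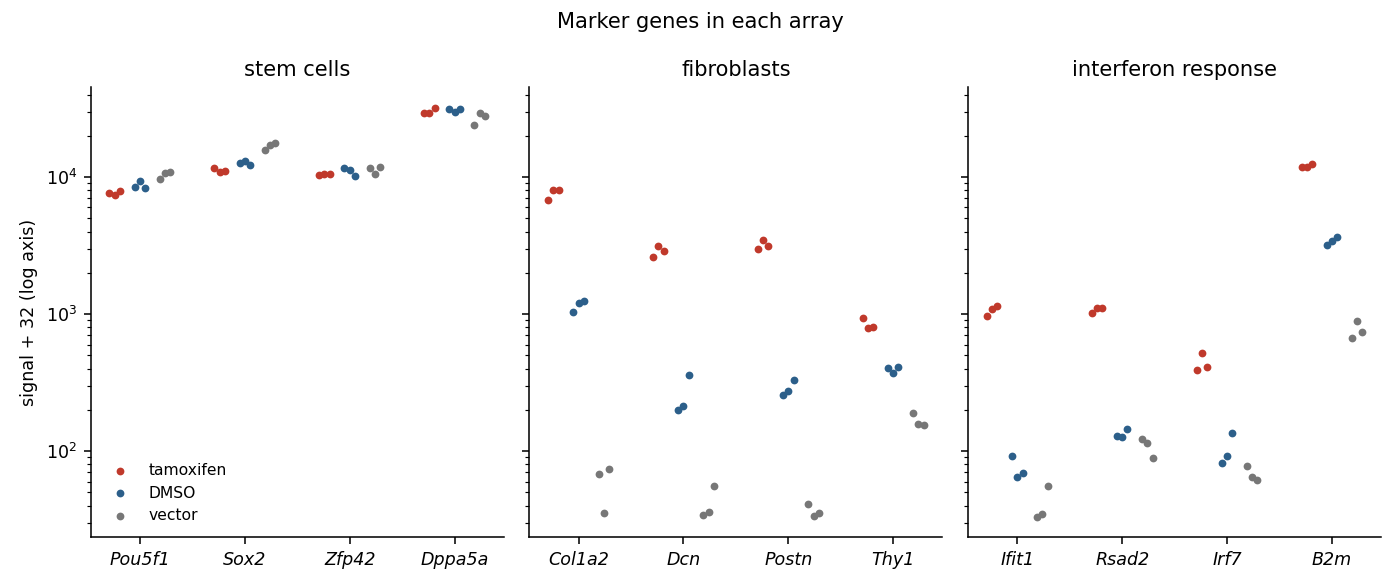
Signal plus 32 (log axis) of 4 stem cell, 4 fibroblast and 4 interferon-induced genes in each of the 3 tamoxifen (red), 3 DMSO (blue) and 3 vector (grey) arrays. Stem cell genes stand at a like level in all groups, while Dcn, Postn and Col1a2 are highest with tamoxifen, lower with DMSO and lowest with vector, and Ifit1, Rsad2 and Irf7 are high with tamoxifen alone.

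Secreted factors of inflammation and the proteases that remodel matrix were among the largest rises. Mmp3, stromelysin, had 3132, 3925 and 3746 with tamoxifen, against 211, 211 and 289 with DMSO (3.76 ± 0.12, adjusted p = 1.83e-09), and Mmp13, a collagenase, had 3656, 3956 and 3750 with tamoxifen, against 461, 493 and 562 with DMSO (2.83 ± 0.08, adjusted p = 1.28e-09). The chemokines Ccl2 and Ccl7, which attract monocytes, had 4187, 4376 and 4166 with tamoxifen, against 441, 313 and 372 with DMSO for Ccl2 (3.40 ± 0.10, adjusted p = 1.28e-09) and 2401, 2457 and 2479 with tamoxifen, against 288, 213 and 177 with DMSO for Ccl7 (3.28 ± 0.13, adjusted p = 1.02e-08). In these 4 genes no array of one group came near the other, and the vector means were 24.8, 12.6, 20.4 and 13.4. Of 18 chemokine and cytokine genes tested, all 18 were higher (median 2.77), Ccl9 (3.15) and Il6 (2.82) among them. This list was put together after values had been seen, so the count only describes. Of its 20 measured genes, 4 averaged under 65.8 with DMSO and 2 with tamoxifen. Some thus passed the filter mainly through the tamoxifen arrays. Higher over all tested genes were 17.5%. Lif, the cytokine also present in the medium, had 232, 239.7 and 191 with tamoxifen, against 106, 97.2 and 159 with DMSO (0.74 ± 0.17, adjusted p = 0.00611). Saa3, an acute phase protein of activated stromal cells and macrophages, had 4461, 4632 and 4836 with tamoxifen, against 479.7, 474 and 529 with DMSO (3.15 ± 0.07, adjusted p = 1.36e-10). Of 10 matrix proteases and inhibitors tested, 8 were higher and 1, Mmp11, lower (-0.99 ± 0.11, adjusted p = 3.49e-05). Mmp11 is stromelysin-3, which is found in tissue remodelling.

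Macrophage genes were visible in the tamoxifen arrays. Of 10 tested, 9 were higher and 0 lower, and 1 did not pass (median 1.99). This list too was put together after values had been seen. Of its 11 measured genes, 2 averaged under 65.8 with DMSO and 1 with tamoxifen, so the filter favoured genes high with tamoxifen. Lyz2, lysozyme M, had 6528, 5700 and 5908 with tamoxifen, against 1140, 1021 and 844 with DMSO (2.56 ± 0.10, adjusted p = 7.70e-09), and Cd14, the endotoxin co-receptor, had 994, 862 and 861 with tamoxifen, against 81.4, 110.0 and 85.3 with DMSO (2.92 ± 0.12, adjusted p = 2.02e-08). Csf1r, the receptor that macrophages need, had 465, 477 and 513 with tamoxifen, against 117, 109 and 111 with DMSO (1.84 ± 0.11, adjusted p = 3.34e-07), and its ligand Csf1 had 1688, 1868 and 1784 with tamoxifen, against 399, 347 and 507 with DMSO (2.02 ± 0.11, adjusted p = 1.63e-07). Every tamoxifen array was several times each DMSO array, and the vector means of all 4 genes lay under the floor, with 21.1 for Lyz2. Acod1, the itaconate-making enzyme of activated macrophages, was under the floor with DMSO and at least 4.12-fold higher with tamoxifen, at 381, 288 and 461 (adjusted p = 7.49e-07). Itgam, another macrophage marker, was under the floor in both groups, at 50.7, 42.5 and 37.1 with tamoxifen and 28.9, 27.9 and 29.3 with DMSO, and Laptm5 did not pass. The summed signal of a separate list of 4 blood markers was 460 to 516 with tamoxifen, 334 to 371 with DMSO and 219 to 263 with vector. What part fibroblasts or macrophages in the cultures, or interferon made by any of the cells, have in the rises of these genes was not tested.

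Most called epithelial genes were lower and several mesenchymal ones higher. Of 13 tested, 7 were lower and 4 higher, and 2 did not pass (median -0.29). Stem-cell-expressed were 11 of the 13, and 21.7% of all such genes were lower and 15.6% higher. Among genes with a vector signal of 5000 or more, as Cdh1 and Epcam have, 33.7% were lower. Cdh1, E-cadherin, which holds stem cell colonies together, had 11552, 11163 and 10532 with tamoxifen, against 13259, 13951 and 14887 with DMSO (-0.34 ± 0.05, adjusted p = 0.0005). Epcam, an adhesion molecule of epithelia and stem cells, had 6614, 6334 and 6334 with tamoxifen, against 8394, 8223 and 8838 with DMSO (-0.40 ± 0.05, adjusted p = 6.60e-05), and Cldn7, a tight junction protein, had 1440, 1391 and 1349 with tamoxifen, against 1954, 2184 and 2552 with DMSO (-0.66 ± 0.09, adjusted p = 0.000164). The groups did not overlap in any of the 3. Both their DMSO and their tamoxifen arrays were above the vector means of 8417, 5513 and 383. Vim, vimentin, had 17456, 18428 and 17771 with tamoxifen, against 7197, 8798 and 9365 with DMSO (1.09 ± 0.08, adjusted p = 1.18e-06), and Cdh2, N-cadherin, had 1287, 1514 and 1329 with tamoxifen, against 613, 631 and 814 with DMSO (0.98 ± 0.11, adjusted p = 4.03e-05). Zeb1, a repressor of Cdh1, was higher by 1.05 ± 0.13 (adjusted p = 7.81e-05), a call lost when its probe sets were averaged (0.40, adjusted p = 0.0564). Vim and Cdh2 are expressed by fibroblasts too, whose summed markers moved the same way.

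The calcineurin and NFAT genes, about which the study asked, showed no shared direction. Of 18 tested, 3 were higher and 3 lower, and 12 did not pass (median -0.04). Both counts are near the shares of all tested genes, 17.5% higher and 16.9% lower. Rcan1, the calcineurin inhibitor that NFAT induces, had 1686, 1594 and 1686 with tamoxifen, against 1062, 1227 and 1182 with DMSO, without overlap (0.51 ± 0.07, adjusted p = 0.000268). Ptgs2, the inducible cyclooxygenase, had 4390, 4363 and 4186 with tamoxifen, against 1044, 779 and 1057 with DMSO, far apart (2.14 ± 0.10, adjusted p = 3.65e-08), and a vector mean of 35.1. Egr2, an immediate early gene, was higher by 0.56 ± 0.18 (adjusted p = 0.0326), but lost that call without any 1 array except DMSO replicate 3, with adjusted p from 0.0519 to 0.123. Of the NFAT factors themselves, Nfatc3 had 1865, 1718 and 1773 with tamoxifen, against 1951, 1848 and 1868 with DMSO and did not pass (-0.08 ± 0.06, adjusted p = 0.342), nor did Nfatc1 (0.22 ± 0.20, adjusted p = 0.436) or Nfatc2 (-0.26 ± 0.20, adjusted p = 0.339). Nfatc4 had 472, 535 and 557 with tamoxifen, against 786, 756 and 834 with DMSO and was lower (-0.58 ± 0.09, adjusted p = 0.000525), but not when its probe sets were averaged (-0.15, adjusted p = 0.414). The calcineurin subunits Ppp3cb (-0.29 ± 0.07, adjusted p = 0.00979) and Ppp3cc (-0.54 ± 0.17, adjusted p = 0.0272) were lower, and Ppp3cc lost its call without DMSO replicate 1 or 3 or tamoxifen replicate 1 or 3 (adjusted p 0.058 to 0.0971). Src, the tyrosine kinase that NFAT is reported to induce in stem cells, had 498, 513 and 539 with tamoxifen, against 493, 489 and 525 with DMSO and did not pass (0.04 ± 0.09, adjusted p = 0.779).

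Immediate early genes were higher in 10 of 15 tested cases and lower in 1 (median 0.31), against 17.5% and 16.9% of all tested genes. The count of higher genes was 6 without DMSO replicate 1, DMSO replicate 2, tamoxifen replicate 2 or tamoxifen replicate 3, 6 with no filter, and 5 with all 18 arrays in one fit or without a variance trend. Fosl2, an AP-1 subunit, had 791, 863 and 819 with tamoxifen, against 191, 134 and 218 with DMSO (2.03 ± 0.14, adjusted p = 8.11e-07, and 0.81 with the mean of its probe sets). Ccn2, a matricellular protein that TGF-beta and Yap induce, had 12810, 13183 and 13167 with tamoxifen, against 6930, 6915 and 8459 with DMSO (0.82 ± 0.07, adjusted p = 4.93e-06). In both the groups did not overlap. Fos (0.26 ± 0.07) and Egr1 (0.26 ± 0.08) were higher by little, and Myc was the lower gene (-0.31 ± 0.11, adjusted p = 0.0403). Its call was lost with no filter, with all 18 arrays in one fit, without a variance trend, with the mean of probe sets and without any 1 of the tamoxifen arrays.

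The changes were then set beside those with CA-NFATc3, since the arrays of that comparison (CA-NFATc3 and vector, 3 each) are not used in the one with tamoxifen. In that comparison 4.62% of 11609 tested genes were higher and 1.24% lower. Of 11223 genes tested in both, 503 were higher with CA-NFATc3, and 205 of those were also higher with tamoxifen, which is 40.8% of the CA-NFATc3 list and 11.7% of the 1755 genes higher with tamoxifen. Over all 11223 genes 15.6% were higher with tamoxifen. Such shares depended on the vector level, as given above, and the lists were not matched for it. Of the 503, 51 were lower with tamoxifen (10.1%, against 17.95% of all). Of the 140 genes lower with CA-NFATc3, 55 were lower with tamoxifen too (39.3%) and 23 higher (16.4%). Across genes, which are not independent replicates, the changes correlated at r = 0.22, and at r = 0.16 over the 8318 stem-cell-expressed ones. With all 18 arrays in one fit, the change with tamoxifen differed from that with CA-NFATc3 in 1739 genes (15.5%).

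The shared and the opposed genes can be read one by one, though those below were picked after their values were seen. Ptgs2 rose in both, by 2.14 with tamoxifen and by 3.33 ± 0.30, adjusted p = 3.93e-06 with CA-NFATc3, a difference between the changes of -1.19 ± 0.37, adjusted p = 0.0315. Rcan1 rose less with tamoxifen, 0.51 against 1.59 ± 0.11, adjusted p = 2.05e-07 with CA-NFATc3 (difference -1.08 ± 0.14, adjusted p = 3.41e-05). Timp2 rose more, 1.95 against 0.96 ± 0.14, adjusted p = 0.000468 (difference 1.00 ± 0.18, adjusted p = 0.000861). Col3a1 rose in both, 2.10 with tamoxifen and 2.32 ± 0.22, adjusted p = 5.94e-06 with CA-NFATc3. Krt19 moved in opposite directions, -0.90 with tamoxifen and 2.29 ± 0.26, adjusted p = 3.72e-05 with CA-NFATc3 (difference -3.19 ± 0.37, adjusted p = 7.23e-06). Fgf4 fell with tamoxifen (-1.50) and did not pass with CA-NFATc3 (-0.13 ± 0.09, adjusted p = 0.554), and the changes differed (-1.37 ± 0.14, adjusted p = 3.21e-06).

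**Figure D5:**
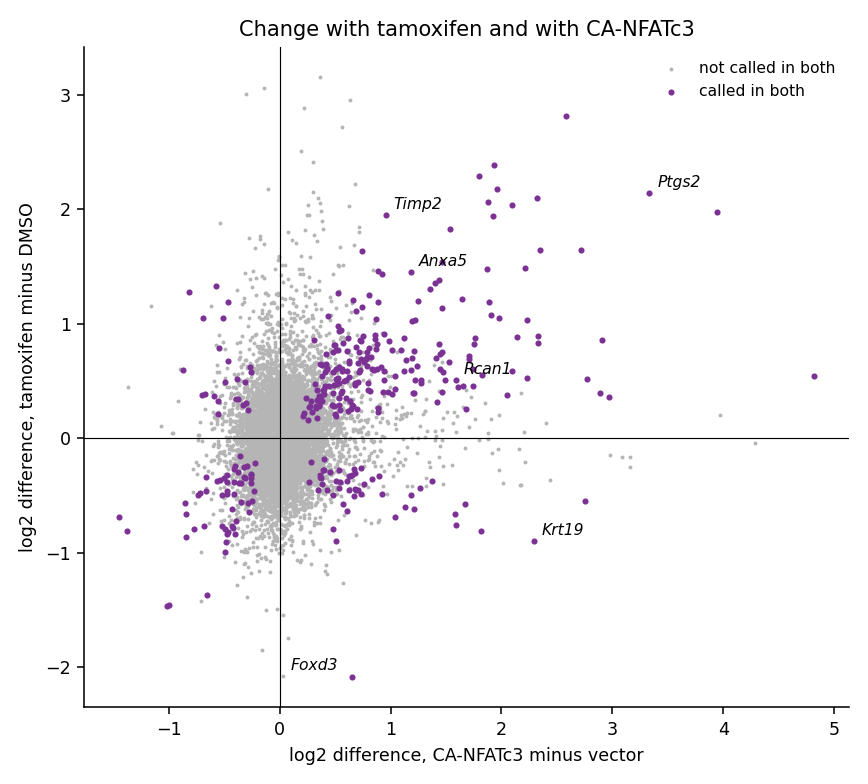
Each point is 1 of 11223 genes tested in both comparisons; the x axis is the log2 difference CA-NFATc3 minus vector and the y axis tamoxifen minus DMSO, with genes called in both in purple. Of the genes called in both, 205 were higher and 55 lower in both, while 51 were higher with CA-NFATc3 and lower with tamoxifen and 23 the reverse.

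The arrays labelled Foxd3 gave another comparison without shared samples. Their label names overexpressed Foxd3, but the signal of its 1 probe set was lower there than with vector (-0.81 ± 0.13, adjusted p = 0.00169). Whether this probe set reads RNA from the plasmid was not tested, so the signal does not show how much Foxd3 those cells made. In this comparison 1.71% of 11609 tested genes were higher and 1.17% lower. Of 191 higher genes tested in both comparisons, 59 were lower with tamoxifen (30.9%) and 49 higher (25.7%), against 17.95% and 15.6% of all 11223. Of 133 lower ones, 39 were higher with tamoxifen (29.3%) and 22 lower (16.5%). Across all genes r was 0.02, and across the 8318 stem-cell-expressed ones it was -0.04. Of all changes 2041 differed (18.2%). Some genes named above moved in opposite directions. They were picked after their values were seen, so the adjusted p of their differences only describes them. With all 18 arrays in one fit, the change of Dnmt3b with tamoxifen was itself not called (adjusted p = 0.121). Tbx3 was at 0.79 with tamoxifen and -0.75 ± 0.08, adjusted p = 2.96e-05 in the arrays labelled Foxd3 (difference 1.54 ± 0.13, adjusted p = 1.38e-07). Tfap2c was at 1.22 with tamoxifen and -0.39 ± 0.10, adjusted p = 0.0477 in the arrays labelled Foxd3 (difference 1.60 ± 0.14, adjusted p = 1.62e-07). Sox11 was at -0.65 and 1.09 ± 0.08, adjusted p = 1.75e-06 (difference -1.75 ± 0.10, adjusted p = 2.91e-09), Dnmt3b at -0.31 and 1.20 ± 0.16, adjusted p = 0.000612 (difference -1.50 ± 0.21, adjusted p = 3.66e-05), and Dnmt3a at -0.78 and 0.87 ± 0.20, adjusted p = 0.0239 (difference -1.65 ± 0.27, adjusted p = 0.000211).

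Promoters were also read for letters that forkhead factors bind. The core TGTTTAC, on either strand, was found in 3.55% of all promoters and in 2.46% of those of tested genes. It was in 2.31% of called higher genes (39 of 1689) and in 2.85% of called lower genes (47 of 1650). Of the genes lower by 2-fold or more, 3 of 34 held it. A pair of these is shown because they are stem-cell-expressed genes with large falls, with the core in capitals (GTAAACA where it lies on the opposite strand).
Txnip: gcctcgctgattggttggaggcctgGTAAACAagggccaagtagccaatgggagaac
Ndrg2: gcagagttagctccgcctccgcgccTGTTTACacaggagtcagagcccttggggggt
They lie at chr3:96557811-96557867 (plus strand) and chr14:51914127-51914183 (minus), in RefSeq sequence of build GRCm38.p6. The variant TGTTTGT was in 6.62% of all promoters and in 4.03% of those of tested genes. It was in 4.14% of called higher genes and in 4.12% of called lower genes. Ndrg2, a gene that is held down by Myc and was chosen here after its value was seen, had 324, 399 and 365 with tamoxifen, against 677, 843 and 849 with DMSO, without overlap (-1.05 ± 0.11, adjusted p = 3.11e-05). Binding of Foxd3 was not measured. Of 17 other forkhead genes tested, 0 were called higher and 3 lower, and 14 did not pass, with 16.9% of all tested genes lower. All 3 calls were lost when probe sets were averaged, with adjusted p of 0.511 for Foxo4 and 0.0638 for Foxn2, and Foxn2 also lost it without DMSO replicate 2 or any 1 of the tamoxifen arrays. Foxk2, a broadly expressed forkhead repressor, had 809, 839.7 and 823 with tamoxifen, against 1274, 1393 and 1294 with DMSO (-0.66 ± 0.07, adjusted p = 3.13e-05), but the call was lost when its probe sets were averaged (adjusted p = 0.0641).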

How the data were processed

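RNA of 6 arrays of conditional knockout cells was compared, 3 with tamoxifen and 3 with DMSO, grouped by their labels, and 3 vector arrays gave the stem cell level. The authors deposited 1 intensity per probe set and array, which the submitters' processing notes credit to MAS5 with no version named. After trimming 2% at each end, all arrays had a mean of 500. Only signals were used, so background and detection calls remain unknown, and 3 arrays per group limit the precision. Median signals were 73.0 to 80.7 here, against 55.2 to 67.1 in the transfected cells. No pair of arrays shared more than 0.00443% identical values.

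The array holds 45101 probe sets. Of these, 34945 map to 1 gene symbol, 932 to several and 9160 to none, and 64 are controls. Entrez numbers matched the gene table of assembly GRCm38.p6 for 34741 probe sets, and 0 symbols changed. A gene with several probe sets, as 9010 had, was read by the one with the highest mean. Signals plus 32 were put on the log2 scale and analysed in R 4.3.3 with limma 3.58.1 (lmFit, a contrast and eBayes with trend), two-sided and with no covariate. The fit was tested on simulated data. Differences between comparisons came from a fit of all 18 arrays. Tables and plots used Python 3.11.15 and matplotlib 3.10.9. The 17 alternatives changed the offset, filter, scaling, variance model, choice of probe set or block, or left out 1 array.

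The comparison, members and lists were chosen with earlier results of these data known. Named genes were the 15 largest rises and falls that were called and had groups apart, the 10 largest each among stem-cell-expressed genes, the 4 largest called genes of each list and a fixed set with Foxd3, Pou5f1, Nanog, Sox2, Rcan1, the Nfatc genes and lineage factors. Other list members named were chosen after their values were seen. Some list genes are not analysed here. No array of another group entered the main fit.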

Additional observations from a re-analysis of the deposited data

Results flagged for a closer look

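Probe sets with no gene symbol or with several were left out of the gene comparison, and they too differed between the groups. Of 3230 that reached the signal filter, 361 were higher with tamoxifen and 343 lower in limma (21.8% called), and 90 were higher and 14 lower by 2-fold or more. They carry no single name in the annotation used here, and their values are given without a reading.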

How the results depend on the processing

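The count of called genes, 4165, was 3119 to 4829 over the 17 alternatives, and 3139 to 4371 when 1 array was left out. Among stem-cell-expressed genes, 3102 became 2175 to 3596, and 2301 to 3323 with 1 array left out. All stayed within 1.5 times. Foxd3 stayed lower and called in all 17. Of 158 named genes in 2650 pairs of gene and alternative, 2550 kept direction and call, 94 lost the call, 5 gained it and 1 reversed: Tpm1, at 0.38 in the fit reported, was at -0.039 (adjusted p = 0.857) with the mean of its probe sets, and 1 of its other probe sets was called lower. The cause was not tested. Changed calls touched 31 genes, and not every such change is given beside its gene. Of 1122 list counts under alternatives, 1030 were within 1.5 times. With the replicate number as a block, 4027 genes were called, 3001 of them stem-cell-expressed. The numbers share only a label: residuals of equally numbered arrays had correlations of 0.0152, -0.0425 and -0.0276. Weak probe sets near the floor of 65.8 give sizes that depend on the offset, and 3 arrays of 1 line per group, with no Cre-negative tamoxifen control, limit what the differences can be ascribed to.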
